A study of Mus musculus with 9 samples.

Results

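Cholesterol synthesis in skeletal muscle was described through 8 genes of the SREBP2 pathway: Srebf2 and Insig1, which regulate it, and the enzyme genes Hmgcs1, Idi1, Fdft1, Sqle, Lss and Cyp51. They were taken by gene name from a table of 13116 genes, all 8 were present, and all 8 were among the 13089 genes that passed the filter on low values. The table came from RNA sequencing of quadriceps muscle of 9 male mice, 1 library per mouse, in 3 groups of 3. KO_secGAA mice lacked Gaa and received AAV8-sp7-delta8-hGAAco, a vector for a secreted acid alpha-glucosidase (secGAA) made in liver. KO_PBS mice lacked Gaa and received PBS, and WT_PBS mice were wild type and received PBS. All mice were injected in a tail vein at 9 months of age, and muscle was taken 9 months later, at 18 months. Gaa encodes the lysosomal enzyme that degrades glycogen, and its loss causes Pompe disease. The sources used here do not give the knockout allele or the vector's promoter.

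Cells make cholesterol from acetyl-CoA through mevalonate, isoprenoid diphosphates, squalene and lanosterol. The genes of this route are switched on by SREBP2, a membrane-bound transcription factor that is carried to the Golgi and cut free when sterols in the endoplasmic reticulum run low. INSIG proteins hold the precursor back when sterols are plentiful, and Insig1 is itself a target of the pathway. Muscle both makes cholesterol and takes it up from blood lipoproteins.

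SREBP2 is known to act at sterol regulatory elements near the start of its target genes, often beside a CCAAT box bound by NF-Y. The sequence before the RefSeq start sites of 3 of the genes is therefore shown. Hmgcs1 and Insig1 were the members whose window held the sterol motif searched, and Cyp51 was the member that fell in treated mice. Capitals mark CACNCCAC, a core of the sterol regulatory element, and CCAAT, each searched on both strands, and a match on the opposite strand is printed as its reverse complement. The sequences are the 250 bases before the RefSeq start site in GRCm38.p6, written 5′ to 3′ on the gene's strand.
Hmgcs1 (chr13:119690101-119690350, plus strand): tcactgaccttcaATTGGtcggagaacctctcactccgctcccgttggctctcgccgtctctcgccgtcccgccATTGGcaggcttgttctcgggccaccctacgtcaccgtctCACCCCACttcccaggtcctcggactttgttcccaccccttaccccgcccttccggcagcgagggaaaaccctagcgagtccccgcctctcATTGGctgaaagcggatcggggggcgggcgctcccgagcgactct
Insig1 (chr5:28071162-28071411, plus strand): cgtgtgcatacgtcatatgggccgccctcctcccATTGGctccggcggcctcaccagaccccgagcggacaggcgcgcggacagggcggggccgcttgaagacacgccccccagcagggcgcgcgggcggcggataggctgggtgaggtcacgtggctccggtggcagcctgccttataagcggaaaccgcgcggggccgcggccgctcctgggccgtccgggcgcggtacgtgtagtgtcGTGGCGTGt
Cyp51 (chr5:4104698-4104947, minus strand): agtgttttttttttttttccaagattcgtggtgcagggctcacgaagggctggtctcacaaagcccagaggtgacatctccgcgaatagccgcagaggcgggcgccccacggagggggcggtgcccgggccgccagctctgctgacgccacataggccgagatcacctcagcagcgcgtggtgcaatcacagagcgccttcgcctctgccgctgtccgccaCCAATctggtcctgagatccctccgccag
The sterol motif lay at bases 115 to 122 of the Hmgcs1 window on the gene's strand, and at bases 242 to 249 of the Insig1 window on the opposite strand. RefSeq and GENCODE starts differ. In GENCODE, Insig1 starts at 28071363 and Cyp51, on the minus strand, at 4104746, so both windows reach into the gene. The Insig1 sterol motif and the Cyp51 CCAAT lie inside those GENCODE genes. RefSeq windows were at hand for 6 of the 8 genes. CACNCCAC was found in 2 of those 6 windows and in 5.29% of 32851 windows of this length over all genes. CCAAT was found in 6 of 6 and in 33.9% of all windows. A match describes the letters of the window and is not a measured site.

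Depth ran between 9299156 and 15957106 reads in the genes of the table, at most 14406655 in the knockout groups and at least 15477523 in WT_PBS. The values are normalized counts, which the authors scaled to library size with a factor for each library. Gaa itself stood at 15.1, 15.6 and 16.6 normalized counts in KO_secGAA and 17.8, 14.5 and 14.0 in KO_PBS, against 296, 128.6 and 264.1 in WT_PBS, which separated both knockout groups from the wild type in every library. Per kilobase of merged exons, Fdft1 had the highest level of the 8 genes, at 13.8 averaged over the 9 libraries. Insig1 followed at 7.01 and Hmgcs1 at 6.91, and these neighbours did not differ beyond the spread within groups. Idi1 was at 3.34, Srebf2 at 2.41 and Cyp51 at 1.30 per kilobase. Lss at 0.286 and Sqle at 0.271 were the lowest and were not separated from each other. Lengths count all annotated exons of a gene, so a gene with many annotated isoforms, such as Lss with 10787 bases, is put low on this scale.

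Srebf2 (ENSMUSG00000022463, chromosome 15, 82147181 to 82205379, GRCm38) encodes SREBP2. It had 17.2, 16.6 and 14.9 normalized counts in KO_secGAA, 18.0, 21.4 and 20.6 in KO_PBS, and 15.9, 16.8 and 14.6 in WT_PBS. Every KO_PBS library lay above every library of the other groups. The log2 fold change of KO_PBS against WT_PBS was 0.33 (SE 0.11, limma adjusted p = 0.0550), which missed the threshold of 0.05. That value passed with 4 of 19 alternatives, namely the higher filter on low values (adjusted p = 0.0409), values without the authors' scaling factors (0.00464), edgeR (0.0459) and the fit without KO_PBS replicate 1 (0.0425). KO_secGAA against KO_PBS gave -0.29 (SE 0.11, limma adjusted p = 0.188), and KO_secGAA against WT_PBS gave 0.05 with an interval of -0.20 to 0.29. For Srebf2, KO_PBS was thus separated from KO_secGAA and WT_PBS, which overlapped with each other, but by differences that did not pass over all genes. Of all genes tested, 39.7% did not overlap between KO_PBS and WT_PBS, and 24.0% between KO_secGAA and KO_PBS.

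Insig1 (ENSMUSG00000045294, chromosome 5, 28071363 to 28078662) encodes the protein that retains SREBP precursors in the endoplasmic reticulum. It had 16.7, 20.8 and 12.1 normalized counts in KO_secGAA, 15.1, 22.3 and 21.9 in KO_PBS, and 44.2, 21.5 and 20.7 in WT_PBS. A single wild-type library, WT_PBS 1, was high, and the other wild-type libraries lay within the range of KO_PBS. KO_PBS against WT_PBS gave a log2 fold change of -0.46 (interval -1.13 to 0.20, limma adjusted p = 0.304), and -0.11 without WT_PBS replicate 1. KO_secGAA against WT_PBS gave -0.73 (interval -1.39 to -0.06, limma adjusted p = 0.197), and -0.38 (limma adjusted p = 0.383) without that library. KO_secGAA against KO_PBS gave -0.26 with an interval of -0.93 to 0.40. None of these passed.

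**Figure D1:**
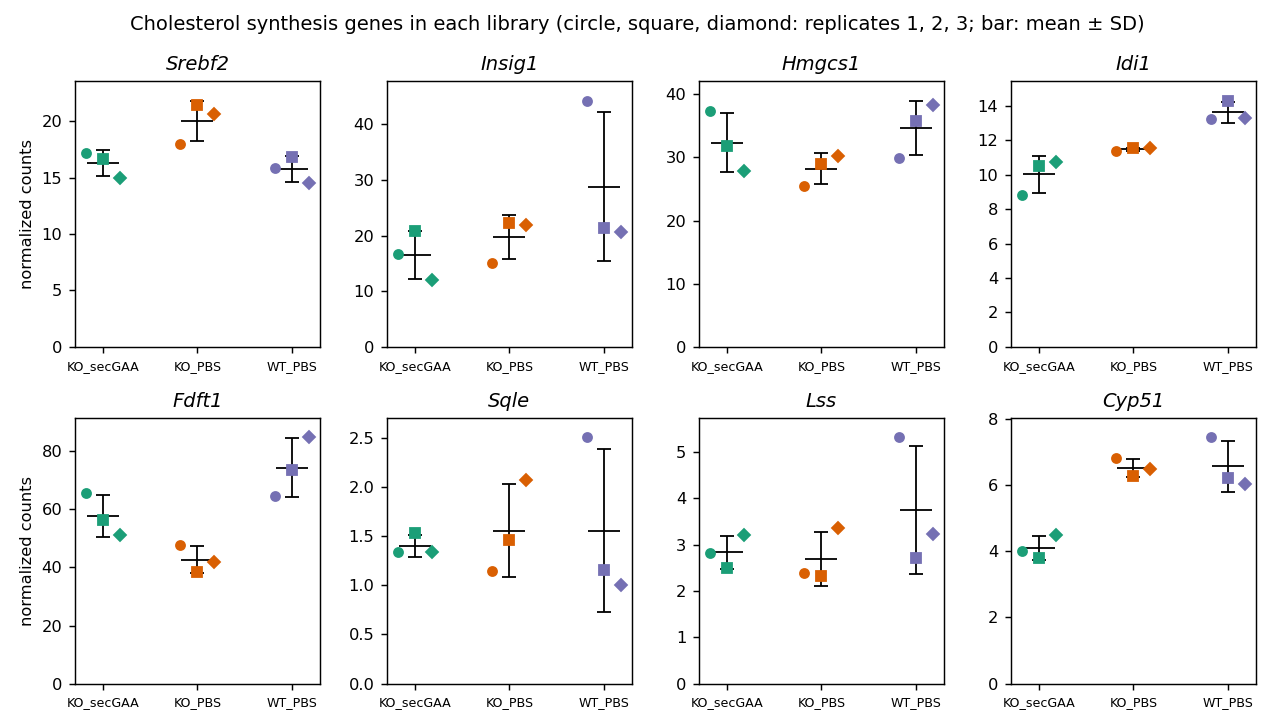
Normalized counts (vertical axes, starting at 0) of the 8 genes in the 9 libraries, with KO_secGAA left, KO_PBS in the middle and WT_PBS right; points are libraries (circle, square and diamond for replicates 1, 2 and 3) and bars show the mean ± SD of 3 mice. Cyp51 is low in all 3 KO_secGAA libraries, Fdft1 in all 3 KO_PBS libraries, and the circle of WT_PBS stands high for Insig1, Sqle and Lss.

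Hmgcs1 (ENSMUSG00000093930, chromosome 13, 119690379 to 119708260) encodes HMG-CoA synthase of the cytosol, which opens the mevalonate route. It had 37.3, 31.9 and 27.9 normalized counts in KO_secGAA, 25.5, 29.0 and 30.2 in KO_PBS, and 29.9, 35.8 and 38.3 in WT_PBS. The 3 groups overlapped. KO_PBS against WT_PBS gave -0.29 on the log2 scale (interval -0.58 to 0.01, limma adjusted p = 0.153), with a turned sign (0.02) without the scaling factors. KO_secGAA against KO_PBS gave 0.19 (interval -0.11 to 0.48), and KO_secGAA against WT_PBS gave -0.10 (interval -0.40 to 0.20).

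Idi1 (ENSMUSG00000058258, chromosome 13, 8885501 to 8892451) encodes the isomerase of isopentenyl diphosphate, which makes the activated unit of isoprenoids. It had 8.80, 10.5 and 10.8 normalized counts in KO_secGAA, 11.4, 11.5 and 11.5 in KO_PBS, and 13.3, 14.3 and 13.3 in WT_PBS. The groups did not overlap in any pair, with KO_secGAA lowest and WT_PBS highest. The spread was narrow, with a coefficient of variation of 10.7% in KO_secGAA, 0.791% in KO_PBS and 4.33% in WT_PBS. KO_secGAA against WT_PBS gave -0.43 on the log2 scale (SE 0.11, limma adjusted p = 0.0644), and passed in 1 of 19 alternatives, the higher filter (adjusted p = 0.0484). KO_PBS against WT_PBS gave -0.23 (limma adjusted p = 0.161), with the sign turned (0.07) without scaling factors. KO_secGAA against KO_PBS gave -0.19 (limma adjusted p = 0.393). No comparison of Idi1 passed the test.

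Fdft1 (ENSMUSG00000021273, chromosome 14, 63145150 to 63179578, minus strand) encodes squalene synthase, the first enzyme committed to sterols. It had 65.7, 56.3 and 51.4 normalized counts in KO_secGAA, 47.7, 38.5 and 41.9 in KO_PBS, and 64.8, 73.7 and 84.8 in WT_PBS. Every KO_PBS library lay below every library of the other groups, and KO_secGAA overlapped with WT_PBS. Fdft1 fell in KO_PBS, to 42.7 ± 4.63 against 74.43 ± 10.04 normalized counts in WT_PBS (SD, n = 3), a log2 fold change of -0.79 (SE 0.13, limma adjusted p = 0.00257). It passed in 19 of 19 alternatives, at -0.89 to -0.48, the smallest change being that without scaling factors (adjusted p = 0.0176). KO_secGAA, at 57.8 ± 7.27, stood 1.35-fold above KO_PBS on the fitted scale (log2 0.43, SE 0.13), but this missed the threshold (limma adjusted p = 0.108) and passed in 0 of 19 alternatives. Against WT_PBS the same treated libraries gave -0.36 (limma adjusted p = 0.145). The comparisons share libraries and are not independent.

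The 3′ end of Fdft1 overlaps that of Ctsb, a lysosomal protease gene on the opposite strand, by 774 annotated bases. The sources used here do not say whether the authors' counting used strand, so reads of these bases may be counted with either gene. Ctsb had 418.9, 433.9 and 359.8 normalized counts in KO_secGAA, 480.6, 544.4 and 516.8 in KO_PBS, and 345.7, 365.5 and 358.1 in WT_PBS. It rose in KO_PBS against WT_PBS by 0.53 on the log2 scale (limma adjusted p = 0.00351), while Fdft1 fell.

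Sqle (ENSMUSG00000022351, chromosome 15, 59315077 to 59331192) encodes squalene epoxidase, which adds the oxygen that precedes ring closure. It had 1.34, 1.53 and 1.33 normalized counts in KO_secGAA, 1.14, 1.46 and 2.07 in KO_PBS, and 2.502, 1.16 and 0.999 in WT_PBS. WT_PBS held both the highest and the lowest library. These values rested on 13 to 36 reads per library, and the 95% intervals were wide: -0.61 to 0.71 on the log2 scale for KO_PBS against WT_PBS, -0.75 to 0.57 for KO_secGAA against KO_PBS and -0.71 to 0.62 for KO_secGAA against WT_PBS. No difference was detectable at this depth.

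Lss (ENSMUSG00000033105, chromosome 10, 76531588 to 76557138) encodes lanosterol synthase, which closes the rings of the first sterol. It had 2.81, 2.49 and 3.21 normalized counts in KO_secGAA, 2.38, 2.33 and 3.36 in KO_PBS, and 5.31, 2.70 and 3.22 in WT_PBS, from 28 to 77 reads per library. Again WT_PBS 1 was high and the other libraries were alike. KO_PBS against WT_PBS gave -0.38 on the log2 scale (interval -0.93 to 0.16, limma adjusted p = 0.2998), and -0.13 without WT_PBS replicate 1. KO_secGAA against WT_PBS gave -0.31 with that library and -0.06 without it (limma adjusted p = 0.505 and 0.911). KO_secGAA against KO_PBS gave 0.08 (interval -0.47 to 0.62).

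Cyp51 (ENSMUSG00000001467, chromosome 5, 4081145 to 4104746, minus strand) encodes the lanosterol demethylase, a cytochrome P450 of the sterol route. It had 4.01, 3.80 and 4.50 normalized counts in KO_secGAA, 6.82, 6.26 and 6.48 in KO_PBS, and 7.44, 6.22 and 6.03 in WT_PBS. All 3 treated libraries lay below all 6 others, and KO_PBS lay within the range of WT_PBS. Cyp51 fell in treated mice, to 4.11 ± 0.361 normalized counts in KO_secGAA against 6.52 ± 0.278 in KO_PBS (log2 fold change -0.61, SE 0.14, limma adjusted p = 0.0421) and 6.56 ± 0.763 in WT_PBS (-0.61, SE 0.14, limma adjusted p = 0.0405; SD, n = 3). Both comparisons use the same treated libraries. KO_PBS against WT_PBS gave -0.0039 on the log2 scale (interval -0.31 to 0.30, limma adjusted p = 0.988), and 0.29 without scaling factors.

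The falls of Cyp51 lay close to the threshold. Against KO_PBS the call held in 7 of 19 alternatives and its log2 fold change ran between -0.75 and -0.56, with adjusted p up to 0.132. The call held without WT_PBS replicate 1 (0.0423) and was lost without any 1 of the other 8 libraries (0.0623 to 0.132). Against WT_PBS it held in 8 of 19, at -0.69 to -0.46, with adjusted p up to 0.134. There it held without KO_secGAA replicate 3 (0.0481) and was lost without any 1 of the other 8 (0.0548 to 0.134). The counts behind the gene were 43 to 108 reads per library. Its end overlaps 166 annotated bases of Akap9 on the opposite strand, a gene at 34.1, 27.8 and 34.1 normalized counts in KO_secGAA, 30.6, 28.5 and 33.0 in KO_PBS and 25.6, 29.3 and 30.8 in WT_PBS. Akap9 overlapped between all groups.

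**Figure D2:**
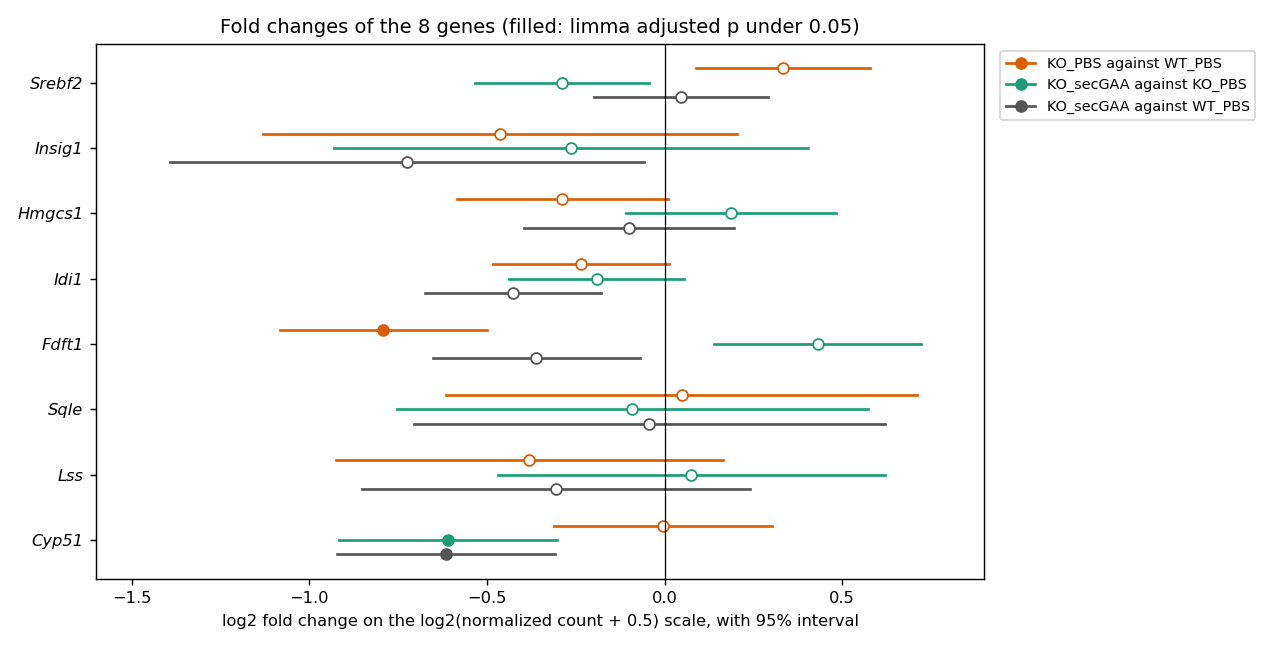
Log2 fold changes (horizontal axis, log2(normalized count + 0.5) scale) of the 8 genes in the 3 comparisons, with 95% intervals from limma over 9 libraries; filled points have an adjusted p under 0.05. The filled points are Fdft1 in KO_PBS against WT_PBS (-0.79) and Cyp51 in both comparisons of KO_secGAA (-0.61 each); values without scaling factors turn the sign of Cyp51, Idi1 and Hmgcs1 in KO_PBS against WT_PBS, of Lss in KO_secGAA against KO_PBS, and of Sqle and Hmgcs1 in KO_secGAA against WT_PBS.

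The effect of losing Gaa was read from KO_PBS against WT_PBS. Of the 8 genes, 1 fell (Fdft1), 0 rose and 7 did not pass, where 11.0% of all genes tested fell and 10.9% rose. At an unadjusted p under 0.05, 1 gene was lower and 1 was higher (Srebf2), where 35.4% of all genes were at such a p in either direction. The groups did not overlap for 3 of the 8 (Fdft1, Idi1 and Srebf2), against 39.7% of all genes. Both shares were near the background of this comparison, so neither sets these genes apart. The fitted change was below 0 for 6 of the 8 with a median of -0.26 on the log2 scale, against 0.01 over all genes. Without the scaling factors the median of all genes shifted to 0.31, and 3 of those 6 (Cyp51, Idi1 and Hmgcs1) lay above 0 but below that median. Over all genes, 49.9% of the calls were rises in the scaled values, and 89.6% without scaling factors.

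KO_secGAA against KO_PBS asked what the vector changed in knockout muscle. Cyp51 fell, 0 of the 8 rose and 7 did not pass, where 2.31% of all genes fell and 1.37% rose. At an unadjusted p under 0.05, 2 genes were lower (Cyp51 and Srebf2) and 1 was higher (Fdft1), where 19.3% of all genes were at such a p in either direction. The groups did not overlap for 4 of the 8, against 24.0% of all genes: Cyp51, Srebf2 and Idi1 were lower in KO_secGAA and Fdft1 was higher. The median log2 fold change of the 8 was -0.14, against 0.0003 over all genes, and without scaling factors the median of all genes was -0.14. Of all calls, 37.2% were rises, and 10.6% without scaling factors. The 4 genes that separated the groups did so in both directions.

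KO_secGAA against WT_PBS asked how treated knockout muscle differed from the wild type. Cyp51 was called lower, in the same treated libraries, 0 of the 8 rose and 7 did not pass, where 1.89% of all genes fell and 1.83% rose. In KO_PBS against WT_PBS Cyp51 had given -0.0039 on the log2 scale (limma adjusted p = 0.988). Fdft1, which was called there, did not pass here (limma adjusted p = 0.145). At an unadjusted p under 0.05, 4 genes were lower (Cyp51, Idi1, Fdft1 and Insig1) and 0 were higher, where 21.5% of all genes were at such a p in either direction. edgeR and DESeq2 called 0 of the 8 higher as well. The groups did not overlap for Cyp51 and Idi1, 2 of the 8, against 26.9% of all genes. The median log2 fold change of the 8 was -0.33, against 0.0047 over all genes, with 7 of the 8 below 0. Without scaling factors the median of all genes was 0.16, and Sqle and Hmgcs1 lay above 0 (0.07 and 0.06). Of all calls, 49.1% were rises, and 86.2% without scaling factors.

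A single library, WT_PBS 1, stood apart for several of the 8 genes. It held the highest of the 9 values for 4 of the 8 genes (Sqle, Insig1, Lss and Cyp51), where 12.9% of all genes had their highest value. Its value was 2.32 times the mean of the other WT_PBS libraries for Sqle, 2.10 times for Insig1 and 1.79 times for Lss, and between 0.808 and 1.21 times for the other 5 genes. Of all genes tested, 8.57% reached a ratio of 1.5. The mean of the 8 genes, each centred on its own mean log2 value, was 0.38 in WT_PBS 1 and lay between -0.21 and 0.08 in the other 8 libraries. The summed level of 8 adipocyte markers was also high in WT_PBS 1, at 1824 normalized counts, against 601.9 and 628.3 in the other WT_PBS libraries, and its part in these values was not tested.

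**Figure D3:**
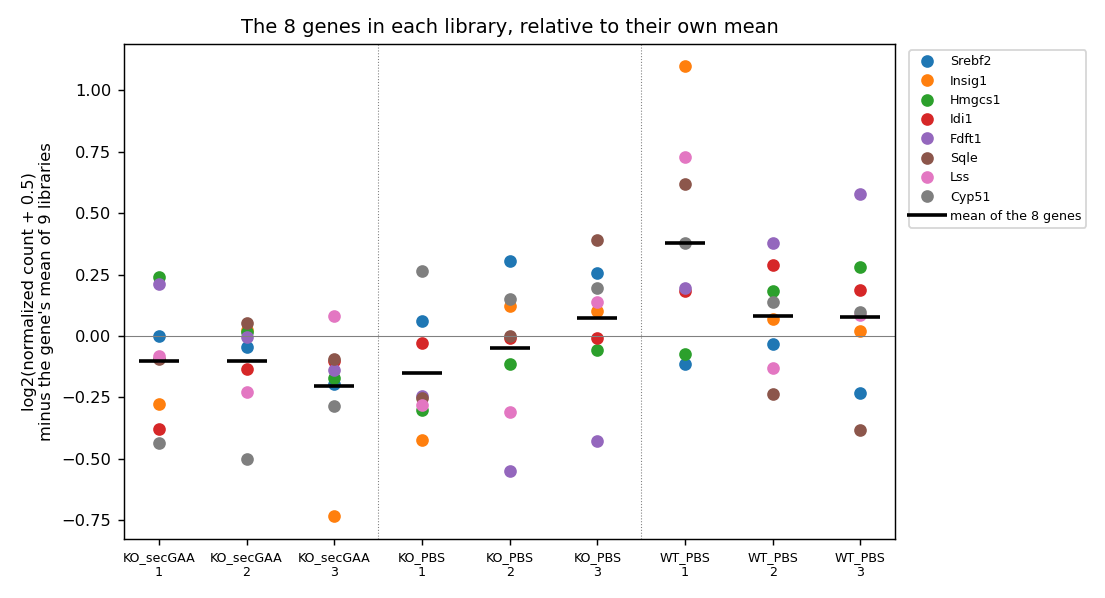
Each gene's log2(normalized count + 0.5) minus its mean over the 9 libraries (vertical axis), for the libraries in order of group (horizontal axis); black bars are the mean of the 8 genes in a library. WT_PBS 1 has the highest mean (0.38), led by Insig1, Lss and Sqle, and Fdft1 is the lowest point in KO_PBS 2 and 3.

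Over the 9 libraries, Insig1 followed the mean of the other 7 genes most closely (Pearson's r 0.846, Spearman's rho 0.683). Next by r were Lss (r 0.672, rho 0.45) and Idi1 (r 0.557, rho 0.65), in the reverse order by rho. WT_PBS 1 held the highest value of both Insig1 and Lss. Hmgcs1 (r 0.0977) and Fdft1 (r 0.0997) were near 0, and Srebf2 was below 0 (r -0.221). These are descriptions over libraries of 3 groups. Among 8882 genes with a mean of 5 or more, those most like the mean of the 8 were Jup, which encodes plakoglobin of cell junctions (r 0.939), Sh3pxd2a, a scaffold of podosomes (r 0.938), Sec61b, a subunit of the channel that admits proteins to the endoplasmic reticulum (r 0.914), Trim26 (r 0.913) and Elmod3 (r 0.906). All 5 had their highest value in WT_PBS 1, such as 17.0 normalized counts of Sec61b there and 8.16 to 11.7 in the other 8 libraries. They were picked for likeness to a mean that was itself highest in WT_PBS 1, so this follows largely from the choice.

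The neighbouring steps of the route were covered by 5 further lists of 56 genes in all. In KO_PBS against WT_PBS, 6 of 15 other enzymes of cholesterol synthesis fell and 0 rose, where 11.0% of all genes tested fell and 10.9% rose. Pmvk, the kinase that follows mevalonate kinase, had 11.4, 11.1 and 10.7 normalized counts in KO_secGAA, 7.86, 7.53 and 6.76 in KO_PBS, and 16.4, 12.1 and 11.4 in WT_PBS. Its log2 fold change in KO_PBS against WT_PBS was -0.79 (limma adjusted p = 0.00434). Sc5d, which introduces a double bond late in the sterol route, had 22.7, 22.5 and 20.5 in KO_secGAA, 18.4, 18.0 and 18.5 in KO_PBS, and 26.6, 25.0 and 25.1 in WT_PBS. It fell in KO_PBS against WT_PBS by 0.47 on the log2 scale (limma adjusted p = 0.00433). All 3 KO_PBS libraries lay below the other 6 for both genes, and the KO_secGAA libraries of Sc5d lay between the other groups. Fdps, which makes the farnesyl diphosphate used by Fdft1, and Lbr, a sterol reductase of the nuclear envelope, fell by 0.38 and 0.37 on the log2 scale (limma adjusted p = 0.0262 and 0.0306).

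The count of 6 depended on the libraries and the scaling. It was 2 without WT_PBS replicate 1, WT_PBS replicate 3, KO_PBS replicate 2 or KO_PBS replicate 3, and at most 5 without any other library. Without scaling factors 1 gene fell (Pmvk) and 1 rose. At an unadjusted p under 0.05, 7 were lower and 0 higher, edgeR called 6 lower and DESeq2 5, and both called 0 higher. The median of the 15 genes was -0.37, against 0.01 over all genes. Pmvk passed in 19 of 19 alternatives and Sc5d in 18, all but the values without scaling factors. Fdps reached an adjusted p of 0.594 without scaling factors, and its call was also lost when 1 of 4 libraries (replicates 1 and 3 of WT_PBS, replicates 2 and 3 of KO_PBS) was left out. Lbr was lost without scaling factors and without any 1 of the 6 KO_PBS and WT_PBS libraries (up to 0.690).

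Of the 10 genes listed for SREBP processing and sterol sensing, 1 rose and 1 fell in KO_PBS against WT_PBS. These counts were near the shares of all genes tested, 10.9% and 11.0%. Srebf1, which encodes SREBP1, the regulator of fatty acid synthesis, had 38.3, 42.1 and 48.0 normalized counts in KO_secGAA, 30.8, 33.5 and 45.7 in KO_PBS, and 115.3, 90.2 and 113.4 in WT_PBS. It fell in KO_PBS against WT_PBS by 1.54 on the log2 scale (limma adjusted p = 0.000216) and in KO_secGAA against WT_PBS by 1.30 (limma adjusted p = 0.00343). Every knockout library, with or without the vector, lay below the lowest WT_PBS library, and both calls held in 19 of 19 alternatives. Ubxn4, a protein of degradation at the endoplasmic reticulum, rose in KO_PBS by 0.77 (limma adjusted p = 0.00274), to 93.6 ± 7.61 against 54.9 ± 9.11 normalized counts in WT_PBS. Without scaling factors 5 of the 10 genes rose and 1 fell.

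Uptake and lysosomal export held 11 tested genes, of which 1 rose in KO_PBS against WT_PBS and 0 fell by limma, edgeR or DESeq2. With limma, 10.9% of all genes tested rose and 11.0% fell, so the 1 rise was near the background. The gene that rose was Lrp1, an endocytic receptor for lipoproteins, at 86.2 ± 11.6 against 52.3 ± 12.8 normalized counts in WT_PBS (0.74 on the log2 scale, limma adjusted p = 0.0265), and it passed in 15 of 19 alternatives. It was lost without WT_PBS replicate 2, WT_PBS replicate 3, KO_PBS replicate 2 or KO_PBS replicate 3 (adjusted p up to 0.0949).

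Of 9 genes of efflux and esterification, 1 rose and 1 fell in KO_PBS against WT_PBS, near the shares of all genes tested (10.9% and 11.0%). Soat1, which esterifies cholesterol for storage, had 4.19, 3.71 and 2.20 normalized counts in KO_secGAA, 5.12, 5.08 and 6.02 in KO_PBS, and 2.02, 1.86 and 2.11 in WT_PBS. It rose in KO_PBS against WT_PBS by 1.24 on the log2 scale (SE 0.22, limma adjusted p = 0.00338), in 19 of 19 alternatives. Cyp27a1, which oxidises the sterol side chain, fell to 51.9 ± 3.15 in KO_PBS, against 87.6 ± 17.7 in WT_PBS (-0.73, limma adjusted p = 0.0103), and did not pass without scaling factors (0.0551). Of 11 genes of the non-sterol branches, 1 rose and 1 fell, again near these shares. Pdss2, a subunit that builds the tail of coenzyme Q, fell by 0.61 (limma adjusted p = 0.00333). Rabggtb, a subunit that attaches isoprenoids to Rab proteins, rose by 0.38 (limma adjusted p = 0.0375) and was lost without any 1 of 6 libraries, namely all 3 of WT_PBS, KO_PBS 1, KO_PBS 2 and KO_secGAA 2 (up to 0.113). Pdss2 did not pass without scaling factors, where 3 genes of efflux and esterification and 5 of the non-sterol branches rose.

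**Figure D4:**
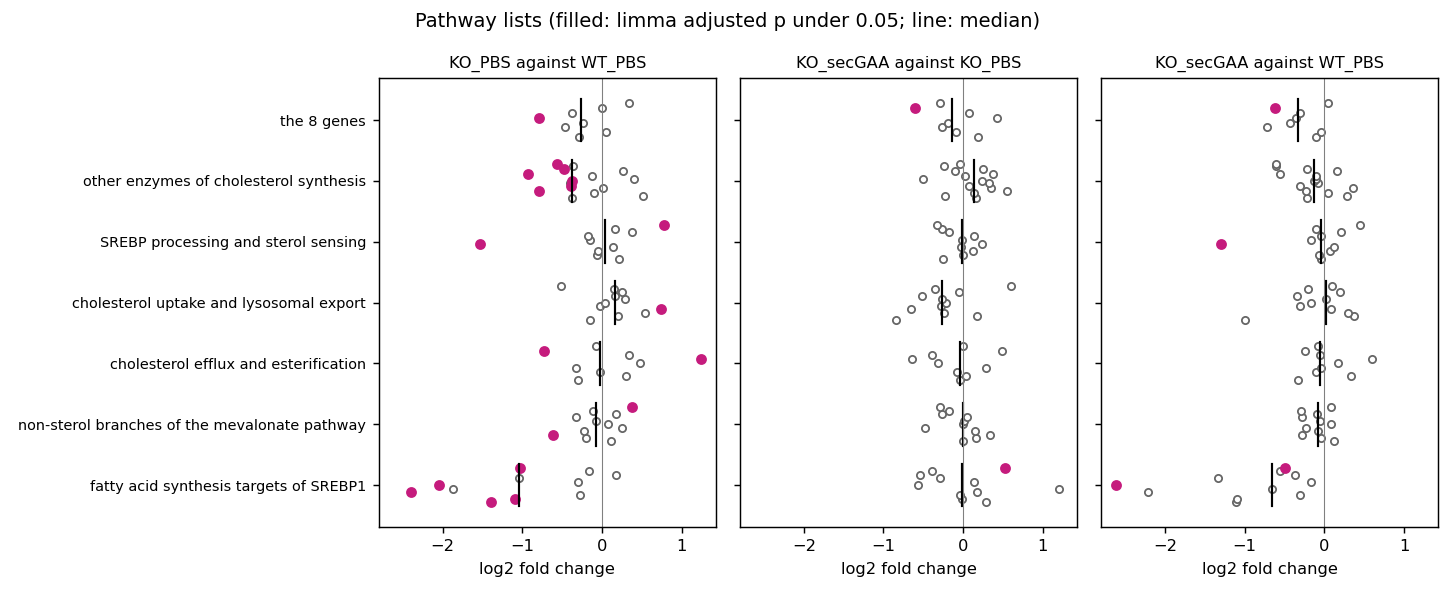
Log2 fold changes (horizontal axis) of the 8 genes and of 6 pathway lists in the 3 comparisons; each point is a gene, filled where its limma adjusted p was under 0.05, and the line is the list's median. In KO_PBS against WT_PBS 6 of 15 other enzymes of cholesterol synthesis and 5 of 11 fatty acid synthesis genes fell, against 11.0% of all genes tested. Without scaling factors 1 and 4 fell.

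In KO_secGAA against KO_PBS, 0 of the 56 genes of the 5 sterol lists passed with limma, where 5 were higher and 8 lower at an unadjusted p under 0.05, as were 19.3% of all genes in either direction. edgeR called 0 and DESeq2 called 2 lower, and without WT_PBS replicate 1 limma called 1 higher and 2 lower. Without scaling factors 1 gene of uptake and lysosomal export and 2 of the non-sterol branches were called lower. In KO_secGAA against WT_PBS Srebf1 was the 1 gene of the 56 that passed with limma and with edgeR, and DESeq2 called 1 higher and 2 lower. A further gene was called without WT_PBS replicate 1 (higher), KO_PBS replicate 1 (lower) or KO_secGAA replicate 3 (higher), or without scaling factors (higher).

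Fatty acid synthesis genes governed by SREBP1 were the last list. In KO_PBS against WT_PBS 5 of its 11 tested genes fell and 0 rose by limma, edgeR and DESeq2. With limma, 11.0% of all genes tested fell and 10.9% rose. The list had a median log2 fold change of -1.04, against 0.01 over all genes. The count of falls was 3 without WT_PBS replicate 2, KO_PBS replicate 2 or KO_PBS replicate 3, up to 7 without any other 1 library, and 4 without scaling factors. In KO_secGAA against WT_PBS 2 fell (6 with DESeq2), where 1.89% of all genes tested fell with limma. In KO_secGAA against KO_PBS 1 rose, where 1.37% of all genes did. Scd2, a desaturase of fatty acids, had 14.0, 11.9 and 8.83 normalized counts in KO_secGAA, 15.1, 14.9 and 21.9 in KO_PBS, and 65.5, 69.5 and 82.3 in WT_PBS. Against WT_PBS its log2 fold change was -2.61 in KO_secGAA (limma adjusted p = 0.000223) and -2.05 in KO_PBS (limma adjusted p = 0.000112). Me1, the malic enzyme that supplies NADPH, had 213.6, 222.5 and 265.3 in KO_secGAA, 159.4, 163.0 and 162.0 in KO_PBS, and 374.9, 290.6 and 328.0 in WT_PBS. Me1 fell in KO_PBS against WT_PBS by 1.03 (limma adjusted p = 0.000284), and rose in KO_secGAA against KO_PBS by 0.53 (limma adjusted p = 0.0360). The rise held in 12 of 19 alternatives, and was lost without scaling factors and without any 1 of 6 libraries, namely all 3 of KO_PBS, WT_PBS 3, KO_secGAA 2 and KO_secGAA 3 (adjusted p up to 0.106). Me1 also fell in KO_secGAA against WT_PBS by 0.50 (limma adjusted p = 0.0400), a call that held in 9 of 19 alternatives, and of the fits without 1 library only in those without WT_PBS 2 or KO_secGAA 3. Acly, which makes acetyl-CoA from citrate for both fatty acids and sterols, fell by 1.40 in KO_PBS against WT_PBS (limma adjusted p = 0.00966), in 19 of 19 alternatives. Acaca, which makes malonyl-CoA, fell by 1.09 (limma adjusted p = 0.0199) and was lost without scaling factors, WT_PBS 2, KO_PBS 2 or KO_PBS 3 (up to 0.0685). Fasn, the fatty acid synthase, was named after its values were seen, and fell by 2.40 (limma adjusted p = 0.0341), with the call lost without any 1 of 4 libraries (WT_PBS 1, WT_PBS 2, KO_PBS 2 and KO_PBS 3). Of 8 adipocyte markers, 0 passed in KO_PBS against WT_PBS, at a median log2 fold change of -0.98. All 8 lay below 0, with 1 at an unadjusted p under 0.05, and their sum was highest in WT_PBS 1. In KO_secGAA against KO_PBS 1 of these markers was called higher, where 1.37% of all genes tested rose. Their median there was 0.94 with 7 above 0, against -0.0082 for the fatty acid list. In KO_secGAA against WT_PBS it was 0.09, against -0.66 for the fatty acid list with all 11 below 0. Among the WT_PBS libraries, replicate 1 was also the highest for Fasn (303.6, 119.8 and 68.0 normalized counts), Acly (53.3, 28.35 and 19.95) and Acaca (42.2, 28.3 and 19.2), but not for Scd2. The part of adipocytes in the values of this list was not tested.

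Bulk muscle cannot tell fewer cells of a type from less RNA per cell. The libraries carried the markers of the labelled tissue: the summed level of 8 muscle fibre markers was 105200 to 117400 normalized counts in KO_secGAA and 91260 to 108700 in KO_PBS, against 125900 to 140100 in WT_PBS. The 12 macrophage markers summed to 95.4 to 179.6 in KO_secGAA and 148.5 to 219.4 in KO_PBS, against 70.2 to 114.6 in WT_PBS. The 8 adipocyte markers summed to 610.2 to 1171 in KO_secGAA and 370.8 to 700.1 in KO_PBS, against 601.9 to 1824 in WT_PBS. Muscle fibre, macrophage, endothelial and smooth muscle sums thus separated KO_PBS and WT_PBS, as did Fdft1 and 39.7% of all genes tested. The endothelial sum also separated KO_secGAA from KO_PBS, as did 24.0% of all genes tested. The muscle fibre sum separated KO_secGAA from WT_PBS, as did 26.9% of all genes tested. Cyp51 was called in both of these comparisons. A sum is weighted to its most abundant members. By fitted change in KO_PBS against WT_PBS, 3 of 8 muscle fibre markers lay above 0 and 5 below, as did 3 and 5 of 8 smooth muscle and pericyte markers. All 12 macrophage markers lay above 0 and all 8 endothelial markers below. Fewer were called: 2 macrophage markers higher and 4 endothelial markers lower. Of the muscle fibre markers 1 was called higher and 2 lower, and of the smooth muscle and pericyte markers 1 higher and 1 lower. Of all genes tested, 10.9% were called higher and 11.0% lower. Endothelial markers summed to 180.0 to 212.7 in KO_secGAA and 123.3 to 171.1 in KO_PBS, against 184.4 to 223.7 in WT_PBS, and 8 smooth muscle and pericyte markers to 261.0 to 294.1 and 248.0 to 286.8, against 293.4 to 325.4. Fibroblast markers summed to 515.3 to 645.0 in KO_secGAA, 582.1 to 920.2 in KO_PBS and 521.7 to 627.8 in WT_PBS. The sums of the Schwann cell markers (64.9 to 74.1, 72.5 to 77.5 and 54.7 to 81.3), satellite cell markers (56.0 to 84.0, 78.3 to 114.0 and 61.5 to 94.5) and erythroid markers (88.2 to 448.3, 33.0 to 176.0 and 170.8 to 452.0), each in the order KO_secGAA, KO_PBS and WT_PBS, overlapped between KO_PBS and WT_PBS. No marker in the table was at 0 reads in any library. The part of cell composition in the values of the 8 genes was not tested.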

How the data were processed

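Per the labels' protocols, polyadenylated RNA from quadriceps was sequenced from NEBNext Ultra libraries as single-end reads of 61 bp. RSEM, cutadapt, CASAVA, edgeR, limma and the build GRCm38 stand in the submitters' processing notes, with no versions or roles. Per the file headers the deposited table holds normalized counts, a signal that the authors had scaled. Each value equals (reads + 0.5) per 1e6 of the product of library total and TMM factor: whole reads came back for 100% of 118044 values (tolerance 1e-06).

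limma 3.58.1 in R 4.3.3 was fitted on log2(value + 0.5) with 3 group means, trend moderation and 6 residual degrees of freedom, over all genes that reached 1 in 3 or more libraries (27 removed). This scale shrinks folds of low genes. Benjamini-Hochberg adjusted p under 0.05 over all genes is a call. Replicate numbers follow accession order only. The fit was tested on simulated reads with known changes. These were drawn with the same spread setting for every gene and with rises only, unlike the data. That test therefore cannot show how the fit performs on these libraries. Alternatives used edgeR 4.0.16, DESeq2 1.42.0 and limma voom on recovered reads. Coordinates are GENCODE M21 on GRCm38, matched by identifier, and promoters are RefSeq GRCm38.p6.

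Named genes are the 8, Gaa, up to 4 called genes per pathway list and comparison by smallest p, and the 5 genes most like the mean of the 8. Fasn, Ctsb and Akap9 were named outside this rule, after their values were seen. Members and lists were chosen with earlier results of these data known. A few genes of the pathway lists are counted but not reported here.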

Additional observations from a re-analysis of the deposited data

How the results depend on the processing

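Of 450 values of the 8 genes under 19 alternatives (18 for Sqle and Lss, which the higher filter removed), 403 kept their direction and side of the threshold, 23 lost a call, 5 gained one and 19 changed sign. The call of Fdft1 in KO_PBS against WT_PBS held throughout. Without scaling factors, 4984 genes were called in KO_PBS against WT_PBS, 959 in KO_secGAA against KO_PBS and 1007 in KO_secGAA against WT_PBS, against 2867, 481 and 487 with them. DESeq2 called 798 and 1022 in the comparisons of KO_secGAA with KO_PBS and WT_PBS, and a fit of the KO_secGAA and KO_PBS libraries alone called 316. Leaving out 1 library gave 1744 (without WT_PBS 3) to 2847, 159 (without KO_secGAA 2) to 568 and 94 (without WT_PBS 3) to 503 in the same order of comparisons; counts also fell by over 1.5 times without KO_PBS 2 (1844) in the first, without WT_PBS 3 (260), any 1 KO_PBS or any 1 KO_secGAA library (at most 302) in the second, and without WT_PBS 2 (209), KO_secGAA 1 (181) or KO_secGAA 2 (143) in the third.

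Of the 8 genes, 2 were called in KO_PBS against WT_PBS with the higher filter, without scaling factors and with edgeR, and 1 to 2 without 1 library. In KO_secGAA against KO_PBS 0 were called with quantile normalization, DESeq2, voom and the 2 groups alone, and 0 to 1 without 1 library. In KO_secGAA against WT_PBS 2 were called with the higher filter, 0 without scaling factors, with voom and with the 2 groups alone, and 0 to 1 without 1 library.

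Signs turned, with no call, without scaling factors in KO_PBS against WT_PBS (Cyp51 0.29, Idi1 0.0696, Hmgcs1 0.0240), in KO_secGAA against KO_PBS (Lss -0.0563) and in KO_secGAA against WT_PBS (Sqle 0.0730, Hmgcs1 0.0595). Sqle turned in KO_PBS against WT_PBS with quantile normalization (-0.0914), edgeR (-0.0208) and DESeq2 (-0.0316). Without 1 library, Cyp51 ran between -0.0574 and 0.0831 in KO_PBS against WT_PBS, Sqle between -0.14 and 0.36 there, -0.24 and 0.0819 in KO_secGAA against KO_PBS and -0.23 and 0.27 in KO_secGAA against WT_PBS, Lss between -0.00411 and 0.22 in KO_secGAA against KO_PBS, and Srebf2 between -0.00904 and 0.10 in KO_secGAA against WT_PBS. The cause of these changes was not tested. Alternatives on the pathway lists were chosen after seeing the data. No paired analysis was possible because the labels give the mice no shared replicate numbers. Groups of 3 mice and, for Sqle and Lss, few reads limit what could be detected. The limma p-values set a difference against the spread between these mice, moderated by a trend over all genes.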
